A study of Mus musculus with 12 samples.

Results

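Complex I (NADH:ubiquinone oxidoreductase) is assembled from subunits encoded in the nucleus and in the mitochondrial genome. The 38 genes described here are the nuclear ones, taken as every gene of the count table whose symbol consists of Nduf, one of the family letters a, b, c, s, v or ab, and a number. They are 38 of 57180 genes in the table, and all 38 passed the filter on low counts that left 19350 genes for testing. The rule reads names alone and no measured value, but it was chosen with earlier results of these data known. The study itself had listed oxidative phosphorylation among the pathways overrepresented in genes lower in the KO livers described below. The counts given here are therefore not independent of that report. Gene positions are on GRCm39. Ndufa4 keeps a complex I name although its protein is now placed in complex IV, and it is counted with the others and described apart.

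Liver RNA came from 12 mice, 3 of each sex and genotype. All of the mice lacked Csa (Ercc8, a factor of transcription-coupled DNA repair) and had received AAV9-CSA, a vector that carries human CSA cDNA behind the chicken β-actin promoter, by injection into the lateral ventricles of the brain as newborns. No untreated mice and no mice with intact Csa were among the 12, so every comparison here is between vector-treated groups. Control mice (Het) were Csa-/-;Xpa+/- littermates matched for age. The other group is labelled KO. The design text and the study's RNA-seq methods give its genotype as Csa-/-;Xpa+/+. The study's results instead describe these mice as lacking both Csa and Xpa and as taken at a humane endpoint. Disease stage therefore goes together with genotype in every comparison and cannot be told apart from it. The ages of single mice were not given in the sources used here.

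Xpa, which encodes a DNA damage recognition protein, was read as a check of the labels. Its normalized level in CPM (counts scaled to the library's total, with TMM factors) ran from 3.10 over a median of 4.65 to 6.34 in the 6 Het livers and from 0.992 over 1.16 to 1.83 in the 6 KO livers. The genotypes did not overlap, and Xpa fell by 1.83 on the log2 scale (SE 0.16, adjusted p = 4.15e-05, edgeR quasi-likelihood test). This goes with reduced Xpa in the livers labelled KO and against the Xpa+/+ of the design text and the methods. Reads were also assigned to mouse Ercc8 in every liver, at 5.10 to 8.68 CPM in Het and 14.8 to 33.997 CPM in KO (a log2 difference of 1.62, SE 0.17, adjusted p = 0.000156). Which part of the gene the Csa allele lacks was not given. Whether some of these reads came from the human CSA cDNA of the vector was not tested. The Ercc8 count therefore checks no label. Total estimated counts ran from 30044781 to 43634046 per liver.

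Complex I takes electrons from NADH in the mitochondrial matrix, passes them along a chain of iron-sulfur clusters to ubiquinone and moves protons across the inner membrane. Its matrix arm holds the site that oxidizes NADH (the N module) and the site that reduces ubiquinone (the Q module), and its membrane arm holds the proton channels, whose core subunits are encoded by mitochondrial DNA. The remaining nuclear subunits are called accessory or supernumerary. They surround the core and are needed for its assembly and stability. In hepatocytes the complex reoxidizes the NADH made by fatty acid oxidation and the citrate cycle.

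Subunit transcripts were lower in KO than in Het livers for part of the family and for no member higher. Of the 38 members, 16 fell in KO (adjusted p under 0.05, edgeR quasi-likelihood test, both sexes together), against 10.2% of all 19350 genes tested, and 0 rose, against 12.2% of all genes. The falls were moderate, from 34.7% for Ndufb1 to 18.7% for Ndufb5. Among all 38 the fitted log2 difference was below 0 for 36, with a median of -0.25, while over all tested genes 9326 were below 0 (48.2%) and the median was 0.02. Without adjustment, 27 members had p under 0.05, and 22 members did not pass the test. For 13 members every KO liver lay below every Het liver, compared with 4.64% of all genes, and for none did every KO liver lie above (4.72%).

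The pooled signal of the family was lower in the KO livers as well. The summed CPM of the 38 genes was 1842, 1922 and 1832 in Het females, 2161, 2181 and 1938 in Het males, 1469, 1856 and 1612 in KO females, and 1723, 1723 and 1775 in KO males. Livers are named by group, sex and mouse number. KO_F_112 reached into the Het range, and KO_F_108 was the lowest of the 12 livers. On the TPM scale, which corrects for transcript length and takes its own total, the sums ran from 2274 to 2456 in Het and from 1882 to 2117 in KO, and the genotypes did not overlap. In bulk liver, fewer cells of a type and less RNA per cell cannot be told apart.

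**Figure D1:**
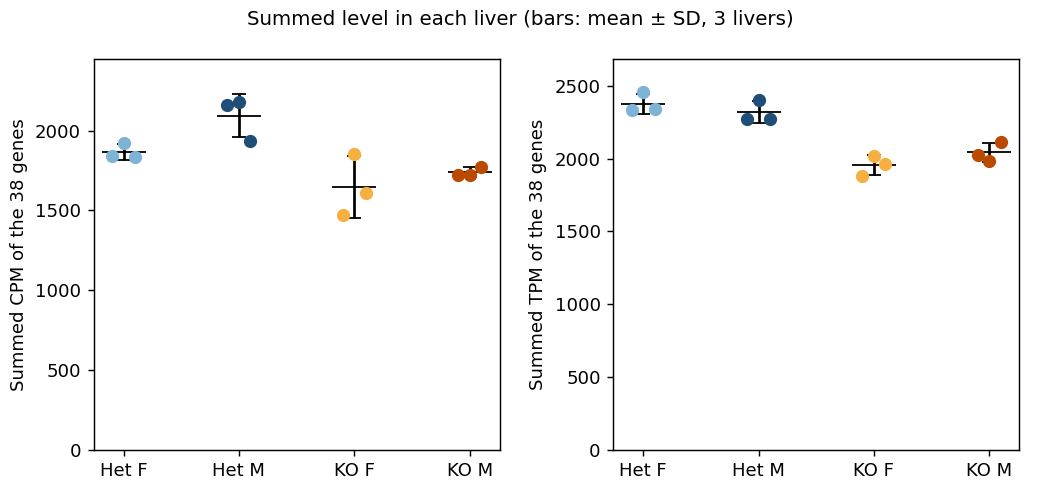
Summed level of the 38 complex I genes in each liver, as CPM scaled by TMM factors (left) and as TPM (right). Each point is 1 liver, grouped by genotype and sex (F, female; M, male), with the mean and SD of 3 livers as bars. On the TPM axis the 6 KO livers lie between 1882 and 2117, below the 6 Het livers, which lie between 2274 and 2456.

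**Figure D2:**
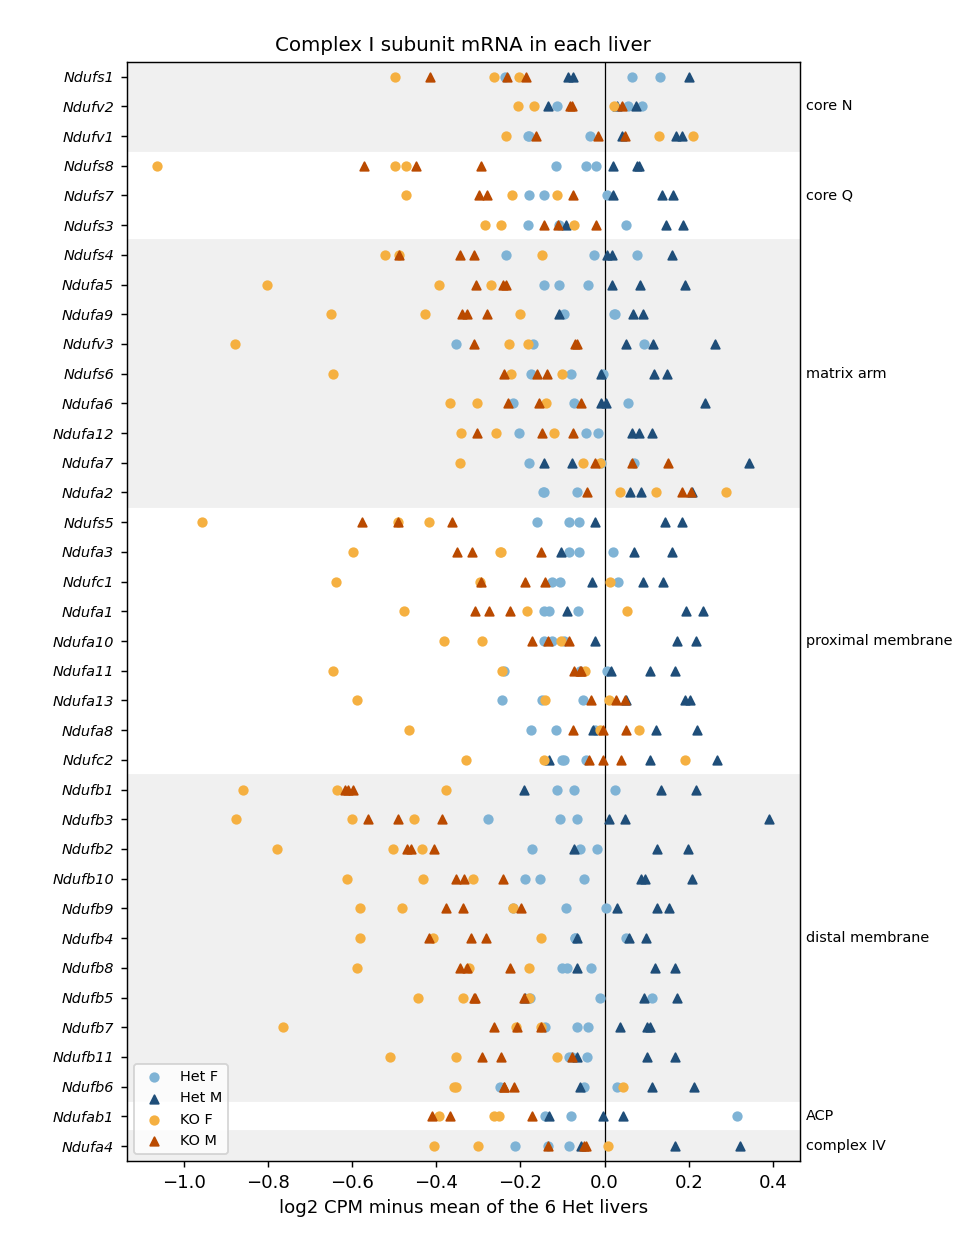
Level of 37 members in each liver, as log2 CPM minus the mean of log2 CPM over the 6 Het livers (horizontal axis, log2 units), with members grouped by place in the complex and sorted by their difference within each place. Circles are females and triangles are males. The KO livers of the distal membrane arm members lie mostly left of the Het livers, KO_F_108 is the leftmost point for many members, and Ndufv1, Ndufa2 and Ndufa7 show the genotypes mixed.

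The nuclear core subunits were divided. Of the 7, 2 fell (28.6%, against 10.2% of all genes), Ndufs8 and Ndufs1. Of the others, 0 rose (12.2% of all genes) and 5 did not pass the test. In the Q module, Ndufs8 (chr19:3958862-3962948, minus strand), which carries iron-sulfur clusters on the way to ubiquinone, had a lowest, median and highest CPM of 37.4, 40.5 and 42.9 in Het and of 19.4, 29.0 and 33.1 in KO, without overlap. It fell by 0.54 on the log2 scale (SE 0.10, adjusted p = 0.00442). Its partner Ndufs7, which holds the last cluster of the chain, ran over 31.96, 36.6 and 40.5 CPM in Het and 26.1, 30.5 and 34.4 CPM in KO, with 4 of 6 KO livers below the lowest Het liver. Its log2 difference was -0.24 (SE 0.09, adjusted p = 0.0661). Ndufs3 (54.8, 61.3 and 70.7 CPM in Het, 51.01, 56.9 and 61.2 in KO) overlapped widely, with a log2 difference of -0.15 (SE 0.08, adjusted p = 0.219).

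In the N module, Ndufs1, the largest subunit and a carrier of several clusters, ran over 92.8, 109 and 125.5 CPM in Het and 77.4, 92.0 and 96.0 CPM in KO. It fell by 0.30 on the log2 scale (SE 0.10, adjusted p = 0.0467) and the genotypes overlapped, with 3 of 6 KO livers below the lowest Het liver. Its adjusted p was the highest of the 16. The call was lost without Het_F_111 or Het_F_115, Het_M_119 or Het_M_125, or any 1 of the 6 KO livers, with adjusted p between 0.0518 (without KO_F_112) and 0.0995 (without KO_M_122). It was also lost without the filter on low counts (0.0719) and with at least 10 reads required in every liver (0.05003). Ndufv1, which binds NADH and the flavin, ran over 105, 120 and 135.9 CPM in Het and 102, 121 and 138 CPM in KO, a log2 difference of 0.00 (0.002, SE 0.09, 2 SE from -0.18 to 0.19). The neighbouring Ndufv2 (46.9, 53.0 and 54.7 CPM in Het, 44.7, 48.7 and 53.0 in KO) differed by -0.08 (SE 0.08, 2 SE from -0.24 to 0.08). Within this one module the fitted values thus ranged from -0.30 to 0.00, and differences between members were not tested.

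Among the 9 accessory subunits of the matrix arm, 3 fell (33.3%, against 10.2% of all genes), Ndufa9, Ndufs4 and Ndufa5. Of the others, 0 rose (12.2% of all genes) and 6 did not pass the test. Ndufa9 (chr6:126798684-126826117), a dehydrogenase-like protein at the junction with the membrane, ran over 67.1, 73.5 and 77.1 CPM in Het and 46.1, 57.5 and 62.9 CPM in KO. The genotypes did not overlap, and it fell by 0.37 on the log2 scale (SE 0.09, adjusted p = 0.0124). Ndufs4, whose loss in mice causes a Leigh-like brain disease, fell by 0.38 (SE 0.09, adjusted p = 0.0135) and Ndufa5 by 0.37 (SE 0.10, adjusted p = 0.0182). The call for Ndufa5 was lost with length-scaled counts (adjusted p = 0.0501). Ndufa2, a small protein with a thioredoxin-like fold, had the highest fitted value of the family. It ran over 40.5, 44.8 and 51.8 CPM in Het and 43.6, 49.9 and 54.8 CPM in KO, with wide overlap and a log2 difference of 0.14 (SE 0.08, 2 SE from -0.02 to 0.29, adjusted p = 0.241). Ndufa7 lay near 0 as well, at 38.2, 42.0 and 54.8 CPM in Het, 34.1, 42.7 and 48.0 CPM in KO and a log2 difference of -0.04 (SE 0.10).

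In the proximal part of the membrane arm, 2 of 9 accessory members fell (22.2%, against 10.2% of all genes), Ndufs5 and Ndufa3. The other 7 did not pass the test. Ndufs5 (chr4:123606481-123612002, minus strand), a protein of the intermembrane space stabilized by disulfide bonds, ran over 25.9, 28.2 and 32.9 CPM in Het and 14.9, 20.6 and 22.6 CPM in KO. No KO liver reached the Het range, and it fell by 0.54 on the log2 scale (SE 0.10, adjusted p = 0.00354). Ndufa3 fell by 0.31 (SE 0.09, adjusted p = 0.0258). That call was lost without Het_M_125 (adjusted p = 0.0549), KO_M_118 (0.0584) or KO_M_136 (0.0512), and without the filter on low counts (0.0571). The other members had values from -0.25 for Ndufc1 to -0.04 for Ndufc2. The 2 members on the X chromosome, Ndufa1 of the proximal and Ndufb11 of the distal region, had log2 differences of -0.23 (SE 0.10, adjusted p = 0.113) and -0.26 (SE 0.09, adjusted p = 0.0511). Ndufa1 and Ndufc1 were called when KO_F_112 was left out (adjusted p = 0.0474 and 0.0361).

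The distal part of the membrane arm held the most members that changed. There 8 of 11 accessory members fell (72.7%, against 10.2% of all genes) and 0 rose (12.2%). All 11 had fitted values below 0 (48.2% of all genes), from -0.61 to -0.22, with a median of -0.35. Differences between the places in the complex were not tested. When each liver in turn was left out, 7 to 11 of the 11 were called. Ndufb1 (ENSMUSG00000113902.2, chr12:101934343-101943331, minus strand), a small single-pass membrane protein, ran over 24.4, 27.5 and 32.4 CPM in Het and 15.4, 18.2 and 21.5 CPM in KO. Every KO liver lay below every Het liver, and its fall of 0.61 on the log2 scale (SE 0.10, adjusted p = 0.00181) was the largest among the 38 members. Ndufb3 (chr1:58625541-58636536, plus strand) ran over 18.8, 22.3 and 29.8 CPM in Het and 12.4, 15.8 and 17.4 CPM in KO, again without overlap, and fell by 0.56 (SE 0.10, adjusted p = 0.00322). Ndufb2 (chr6:39569490-39595671, plus strand) ran over 27.3, 29.995 and 35.3 CPM in Het and 17.9, 22.3 and 23.3 CPM in KO and fell by 0.51 (SE 0.09, adjusted p = 0.00212).

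Ndufb10 (chr17:24941032-24943453, minus strand), another disulfide-bonded protein of the intermembrane face, ran over 45.6, 52.7 and 59.96 CPM in Het and 33.97, 40.9 and 43.95 CPM in KO, without overlap, and fell by 0.38 (SE 0.08, adjusted p = 0.00551). Ndufb9 (chr15:58805594-58814819), an LYR-motif protein that holds an acyl carrier protein, ran over 90.04, 106 and 116 CPM in Het and 70.0, 81.8 and 91.3 CPM in KO and fell by 0.36 (SE 0.09, adjusted p = 0.0127). In that gene 1 KO liver reached into the Het range. Ndufb4 fell by 0.35 (SE 0.09, adjusted p = 0.0135), with Het livers from 29.7 to 33.4 CPM and KO livers from 20.9 to 28.1 CPM. Ndufb8 fell by 0.33 (SE 0.09, adjusted p = 0.0185) and Ndufb5 by 0.30 (SE 0.09, adjusted p = 0.0344). The Ndufb5 call was lost without Het_F_111 or Het_F_115, Het_M_119 or Het_M_125, KO_F_108 or KO_F_123, or KO_M_118 or KO_M_122, at adjusted p from 0.0525 to 0.0742. It was also lost with length-scaled (adjusted p = 0.0518) or scaled counts (0.0564) and without the filter on low counts (0.0717). The 3 members below the threshold were Ndufb11, Ndufb7 (-0.28, SE 0.10, adjusted p = 0.067, with every KO liver below every Het liver) and Ndufb6 (-0.22, SE 0.10, adjusted p = 0.113), and all 3 were called when KO_F_112 was left out (adjusted p = 0.0254, 0.0426 and 0.0372).

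**Figure D3:**
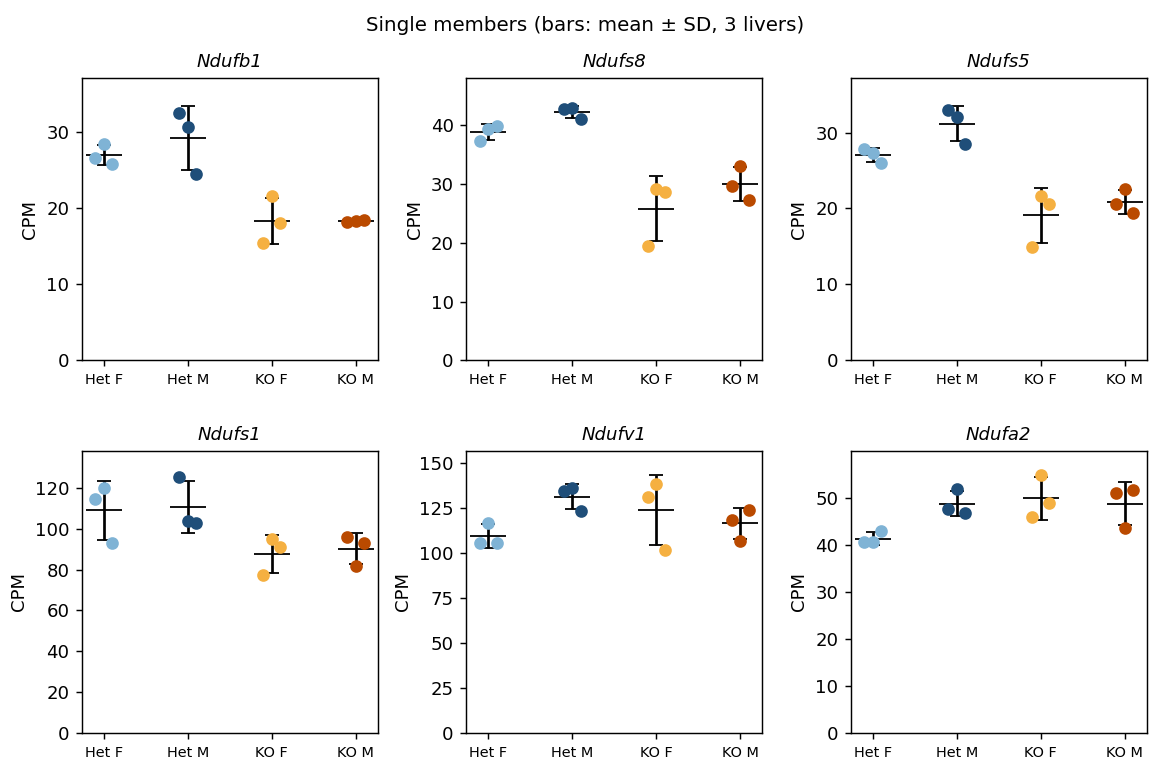
CPM of 6 members in each liver by genotype and sex (vertical axis from 0; bars are mean and SD of 3 livers). Ndufb1, Ndufs8 and Ndufs5 show every KO liver below every Het liver, Ndufs1 overlaps, and Ndufv1 and Ndufa2 show no separation of the genotypes.

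Ndufab1, the mitochondrial acyl carrier protein, sits in the complex at a site in each arm and also serves fatty acid and lipoic acid synthesis and iron-sulfur cluster assembly. It ran over 27.7, 29.7 and 37.96 CPM in Het and 23.0, 24.6 and 27.1 CPM in KO, without overlap. On the TPM scale the genotypes overlapped (lowest Het 43.5, highest KO 45.1). The gene fell by 0.31 on the log2 scale (SE 0.10, adjusted p = 0.0343). The Het values are spread by 1 high liver, Het_F_115, and the call was lost without it (-0.25, adjusted p = 0.0595). It was also lost without Het_M_119 or Het_M_125, KO_F_112 or KO_F_123, or KO_M_118 or KO_M_122 (adjusted p from 0.0544 to 0.0746). The same held without the filter on low counts (0.076) and with limma on TPM (0.0619 at pseudocount 1, 0.0599 at 0.1). Ndufa4, the subunit now placed in complex IV, ran over 106, 117 and 153.5 CPM in Het and 92.7, 115.3 and 123.4 CPM in KO, with a log2 difference of -0.15 (SE 0.10, adjusted p = 0.276). Its paralog Ndufa4l2, known as a hypoxia-induced gene, was near the limit of detection at 0.357 to 0.878 CPM in Het and 0.217 to 1.11 CPM in KO (log2 difference 0.47, SE 0.30, adjusted p = 0.279).

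Promoter sequences of the members were read to see whether a motif of the known regulators of respiratory chain genes was shared by those that fell. The window ran from 250 bases before to 50 after the start of the canonical transcript of each gene, in the GRCm39 genome, and both strands were searched. The NRF1 core GCATGCGC was found in 2 of 38 members (4.44% of 14310 promoters of tested protein-coding genes), the ETS motif CCGGAAG in 4 of 38 (14.2%), the ERRA motif TCAAGGTCA in 0 of 38 (0.342%), the YY1 motif AAGATGGCG in 1 of 38 (1.93%) and the SP1 box GGGCGG in 15 of 38 (54.9%). The SP1 box stood in 5 of the 16 members that fell and in 10 of the 22 that did not pass the test, and the NRF1 core in 0 of 16 and 2 of 22. The ETS motif stood in 2 of 16 and 2 of 22, and the YY1 match was in Ndufa9, which fell. No motif contains another. As examples, 100 bases upstream of the start are given for Ndufb1, with the largest fall and no match, for Ndufb8, which fell and has an SP1 box, and for Ndufa6, which did not pass the test and has an NRF1 core. Matches are in capitals (the SP1 box of Ndufb8 lies on the other strand and reads CCGCCC here), and each is written 5′ to 3′ on the gene's strand, here the minus strand.
Ndufb1 (chr12:101942514-101942613): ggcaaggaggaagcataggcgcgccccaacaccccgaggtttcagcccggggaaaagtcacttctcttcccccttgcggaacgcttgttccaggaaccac
Ndufb8 (chr19:44543882-44543981): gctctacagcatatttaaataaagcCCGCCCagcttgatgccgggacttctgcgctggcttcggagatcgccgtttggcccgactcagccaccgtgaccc
Ndufa6 (chr15:82238524-82238623): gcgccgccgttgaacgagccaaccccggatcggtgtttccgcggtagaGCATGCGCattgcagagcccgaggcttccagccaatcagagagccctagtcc
A match describes these letters only, and a window without one says nothing of binding.

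In females and males taken apart, fewer members passed the test. In females 4 fell (Ndufb1, Ndufb2, Ndufs5 and Ndufs8), against 5.1% of all genes, and 0 rose (5.94%). In males 5 fell (Ndufb1, Ndufb2, Ndufb3, Ndufb10 and Ndufs5), against 2.98%, and 0 rose (4.47%). Of these, 3 passed in both sexes, and 10 of the 16 called over both sexes passed in neither alone. Ndufb1 measured 26.5, 28.4 and 25.8 CPM in Het females and 15.4, 21.5 and 18.0 in KO females, and 32.4, 30.6 and 24.4 CPM in Het males and 18.2, 18.3 and 18.5 in KO males. It fell by 0.56 in females (SE 0.14, adjusted p = 0.0308) and by 0.67 in males (SE 0.14, adjusted p = 0.017), without overlap in either sex. Ndufs8 measured 37.4, 39.3 and 39.9 CPM in Het females against 19.4, 29.2 and 28.7 in KO females (-0.59, SE 0.15, adjusted p = 0.0286), and 42.8, 42.9 and 41.1 CPM in Het males against 29.7, 33.1 and 27.2 in KO males (-0.49, SE 0.15, adjusted p = 0.0658). Its genotypes did not overlap in males either, although the test was not passed there.

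Fitted values were below 0 in both sexes for 34 of 38 members. On the CPM scale with TMM factors, KO livers of a sex lay wholly below the Het livers of that sex for 16 members in females (14.7% of all genes). In males they did so for 30 (15.4%). Such separation within a sex was not counted on the TPM scale. By test, edgeR called 4 members lower in females and 5 in males. With limma on TPM, 11 were called lower in females and 4 in males (1165 and 339 of all genes at pseudocount 1). The difference between the sexes was tested in its own right (the interaction of genotype and sex). It was called for 0 of 38 members, in either direction and by edgeR, DESeq2 or limma, and 0 had an unadjusted p under 0.05 in the edgeR fit. Over all genes 0.0103% were called lower and 0.0362% higher. The fall was the larger one in males for 30 members with TMM scaling, but for 13 without KO_F_112, for 5 with library sizes alone and for 4 on the TPM scale, so no direction between the sexes is given. Ndufv1 had the largest interaction value, 0.18 (SE 0.13) in females and -0.17 (SE 0.13) in males, with an adjusted p of 0.581. The counts within a sex changed when single livers were left out, and so did those over all genes. In females 0 members were called without Het_F_111 or Het_F_115 and 1 without Het_F_126 or KO_F_108. Over all genes, 986 were called lower in females with every liver, and 486, 646, 525 and 375 without these livers in that order. In males 0 members were called without Het_M_119, KO_M_118 or KO_M_136, 1 without Het_M_125, 3 without KO_M_122 and 11 without KO_F_108. Over all genes, 576 were called lower in males with every liver, and 275, 198, 238, 215, 344 and 875 without these livers in that order. Between the sexes over both genotypes, 0 members were called, 5 had an unadjusted p under 0.05 and 37 had higher fitted values in males with TMM scaling, against 21 of 38 on the TPM scale. All genes were called at 0.506% (lower in males) and 0.512% (higher).

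**Figure D4:**
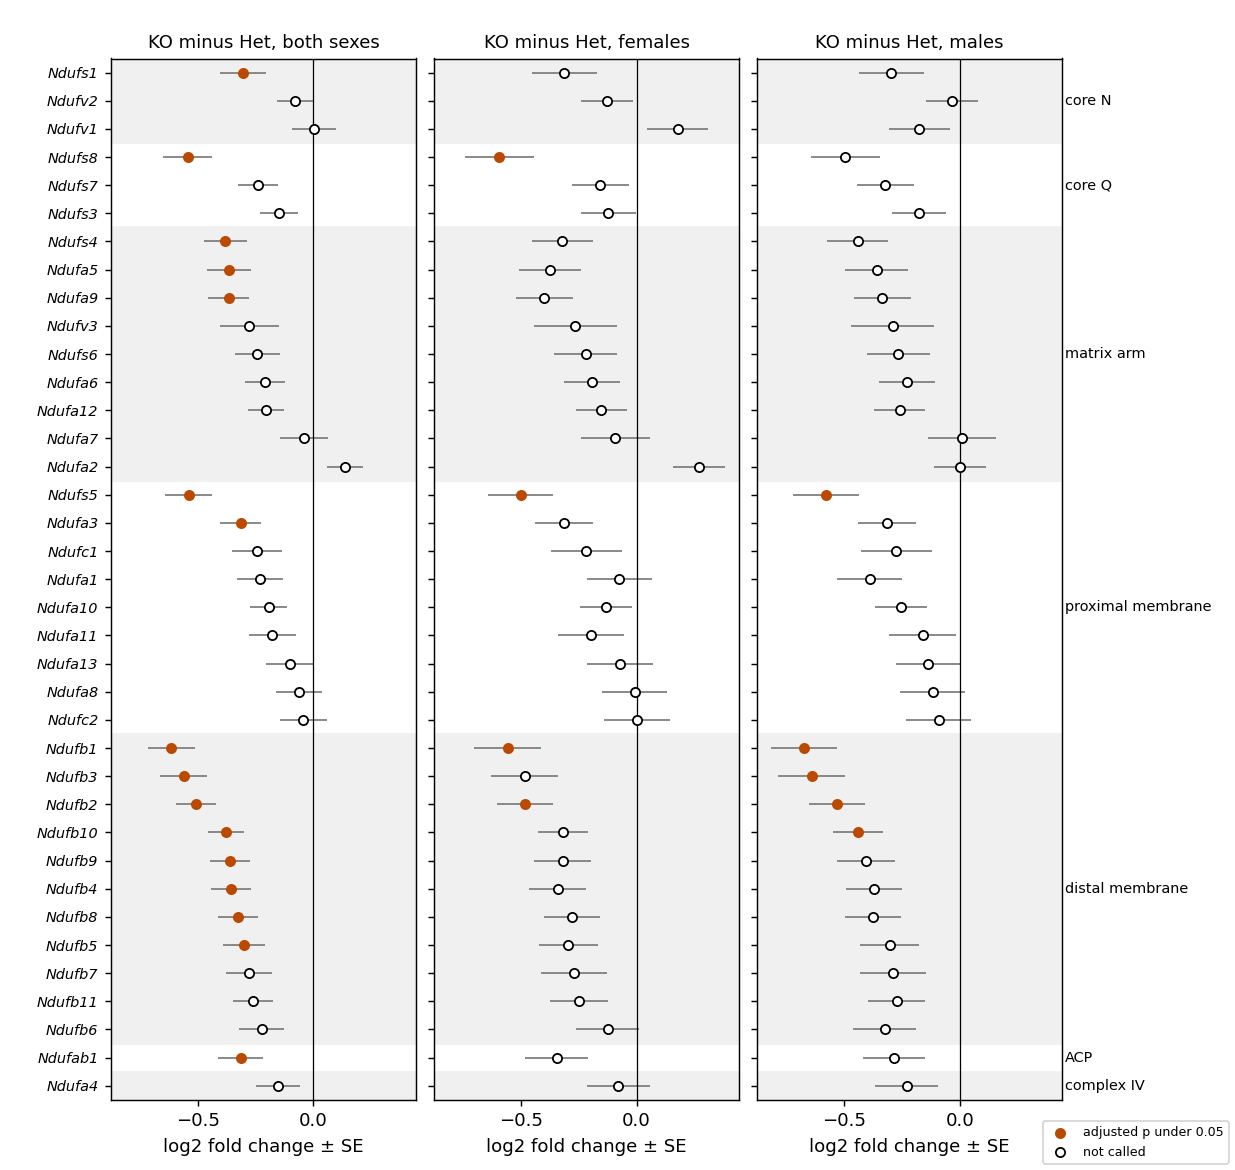
Fitted log2 difference between KO and Het with 1 SE on each side for 37 members, over both sexes, in females and in males, grouped by place in the complex. Filled points have an adjusted p under 0.05 (edgeR quasi-likelihood test over 19350 genes). Of the 37 members, 16, 4 and 5 are filled in the 3 panels, all left of 0.

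Levels between members were compared per length, in TPM over the 12 livers. Ndufa4 was the highest at 222 ± 18.9 TPM (SD, n = 12; 193 to 266), followed by Ndufb9 at 121 ± 17.1 (99.7 to 148) and Ndufa6 at 114 ± 10.8 (99.1 to 134). The ranges of Ndufb9 and Ndufa6 overlapped, while that of Ndufa4 stood above both. Ndufb3 was the lowest at 22.4 ± 4.86 TPM (16.2 to 31.1), then Ndufb4 at 26.1 ± 3.65 (21.8 to 32.5) and Ndufa8 at 32.2 ± 2.41 (26.7 to 35.2), and these ranges overlapped one another. These ranks pool both genotypes, and part of the order differed within them. Ndufb9 lay above Ndufa6 in Het (135.96 ± 7.58 against 121.7 ± 9.88 TPM, SD, n = 6) but not in KO (106.1 ± 7.34 against 106.5 ± 4.5999 TPM). Ndufb3 and Ndufb4 were the lowest in both genotypes, and Ndufa8 came next in Het (32.9 TPM), whereas in KO Ndufb1 (26.6 TPM), Ndufs1 (28.8), Ndufs8 (30.8) and Ndufa9 (31.4) had lower means than Ndufa8 (31.5). The highest and lowest members thus include genes that fell and genes that did not. Across the 38 members the log2 difference had a Spearman correlation of 0.26 with mean TPM, of 0.00 (0.0023) with gene length and of -0.11 with transcript length, given as descriptions over genes that share the same libraries. The members lie on 16 chromosomes. On the TPM scale 19 members had every KO liver below every Het liver, compared with 3.89% of all genes.

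Members varied together from liver to liver. After the mean of its own group was taken from each liver, the median correlation between pairs of members over the 12 livers was 0.62, and 673 of 703 pairs were above 0. All members share the libraries and their scaling, so this describes the livers as much as the genes. On the CPM scale with TMM factors, used here, the spread lay mostly in the KO females. KO_F_112 had the lowest TMM factor of the 12 livers (0.885). On the TPM scale its sum of 2019 lay among those of the other KO livers (1882 to 2117). KO_F_112 was above its group mean for 38 of 38 members, while KO_F_108 was above it for 2. KO_F_108 lay below every Het liver for 36 members and KO_F_112 for 15, with the other KO livers between 19 and 33. Without KO_F_108, 14 members were called lower over both sexes (median difference -0.20), and without KO_F_112, 20 were (median -0.32). Over all genes, 1778 and 1735 were called lower without these livers, against 1966 with every liver.

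Other genes of the pathway were read from lists of textbook composition. Of 20 assembly factors for complex I, which build the complex without staying in it, 4 fell (20%, against 10.2% of all genes) and 0 rose. Timmdc1, which acts on the membrane arm, ran over 18.6, 22.2 and 24.2 CPM in Het and 13.7, 15.8 and 16.6 CPM in KO, without overlap, and fell by 0.49 on the log2 scale (SE 0.09, adjusted p = 0.00261). Tmem126b, of the same assembly intermediate, fell by 0.59 (SE 0.12, adjusted p = 0.00556), and Ndufaf2, a late-acting factor, by 0.52 (SE 0.13, adjusted p = 0.017). Ecsit, also of that intermediate, fell by 0.28 (SE 0.08, adjusted p = 0.0339), a call that 11 of 26 other settings lost, among them leaving out Het_F_111 or Het_F_126, Het_M_119 or Het_M_125, KO_F_123, or KO_M_118 or KO_M_122. Of the 7 subunits encoded by mitochondrial DNA, 1 was called (14.3%, near the share of all genes). The mt-Nd2 level ran over 753, 977 and 1118 CPM in Het and 640.2, 745 and 870.3 CPM in KO, a fall of 0.35 (SE 0.12, adjusted p = 0.049) that 15 of 26 other settings lost, with a highest adjusted p of 0.097, among them leaving out any 1 liver other than Het_F_126 or KO_F_112. Without Het_F_126 the count was 2 of 7. The other 6 had fitted values on both sides of 0, from -0.56 for mt-Nd3 (SE 0.21, adjusted p = 0.0723) to 0.24 for mt-Nd5 (SE 0.15), and their genotypes overlapped.

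Nuclear subunits of complexes II to V resembled the complex I members in count. Of 40 tested, 16 fell (40%, against 10.2% of all genes), 0 rose and 39 had fitted values below 0, with a median of -0.23. Leaving out single livers gave 12 to 18 of them as lower. Uqcrb of complex III ran over 55.5, 62.2 and 67.6 CPM in Het and 39.0, 44.6 and 48.9 CPM in KO and fell by 0.49 (SE 0.09, adjusted p = 0.00253). Atp5pf of ATP synthase fell by 0.41 (SE 0.07, adjusted p = 0.00279) and Cox6b1 of complex IV by 0.48 (SE 0.09, adjusted p = 0.00381), both without overlap. Of 15 genes of the citrate cycle and pyruvate dehydrogenase, the source of much of the NADH that complex I oxidizes, 7 fell (46.7%) and 0 rose. Among the 7 were Sucla2 (-0.46, SE 0.09, adjusted p = 0.00454), Pdhb (-0.62, SE 0.13, adjusted p = 0.00754) and Suclg1 (-0.41, SE 0.09, adjusted p = 0.00837). Leaving out single livers gave 5 to 8 of this list as lower. Of 14 genes of iron-sulfur cluster assembly, 1 fell (7.14%, below the 10.2% of all genes). It was Nfu1, which hands clusters to target proteins (-0.38, SE 0.09, adjusted p = 0.01). Lyrm4, a partner of the cysteine desulfurase, measured -0.28 (SE 0.11, adjusted p = 0.0868). Of 15 genes for other proteins of the mitochondrial membranes and matrix, 1 fell (6.67%, also below the share of all genes). It was the outer membrane channel Vdac3 (-0.34, SE 0.07, adjusted p = 0.00744), while citrate synthase (Cs) measured -0.47 (SE 0.17, adjusted p = 0.0676) and the chaperonin Hspd1 -0.26 (SE 0.10, adjusted p = 0.0738). Without KO_F_123 the counts were 2 of 14 for iron-sulfur cluster assembly and 2 of 15 for the membrane and matrix proteins, the latter also 2 without Het_F_111 or Het_F_126. In place of 0 called higher, 1 gene of the citrate cycle list was called without Het_F_115, KO_F_123 or KO_M_122 and 1 assembly factor without KO_M_122. The differences between lists were not tested.

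**Figure D5:**
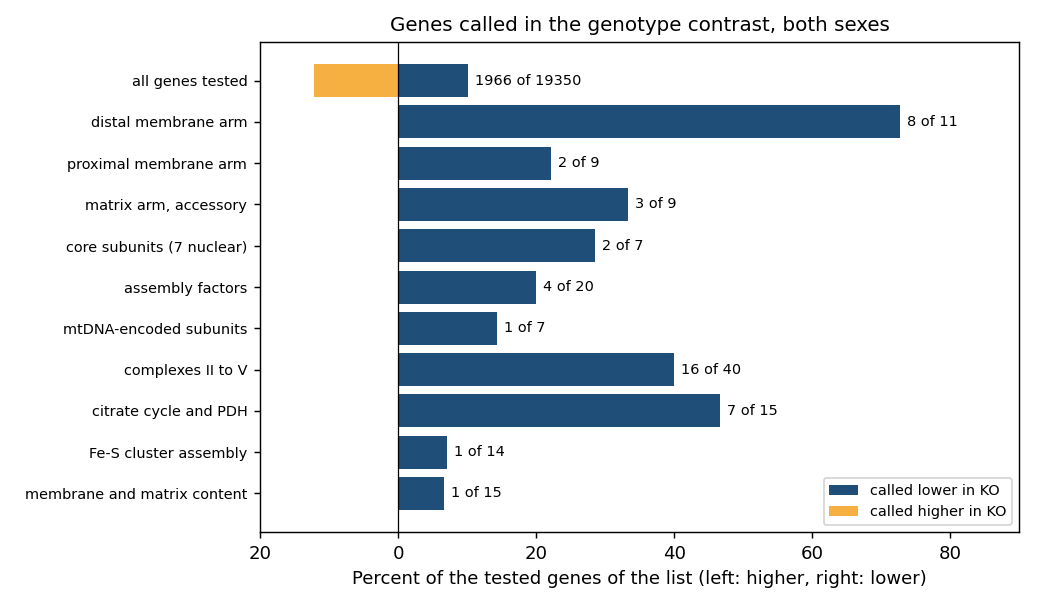
Percent of the tested genes of each list that were called lower (right of 0) or higher (left of 0) in KO over both sexes (edgeR, adjusted p under 0.05), with the number called lower beside each bar. The distal membrane arm shows 8 of 11 lower, iron-sulfur cluster assembly 1 of 14, and all genes tested 1966 of 19350.

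Of 10 transcriptional regulators of respiratory chain genes, 3 fell (10.2% of all genes did) and 0 rose (1 was called higher without Het_M_119). Ppara, the nuclear receptor that drives fatty acid oxidation in liver, ran over 129, 216 and 241 CPM in Het and 53.1, 76.5 and 125.1 CPM in KO. The genotypes did not overlap, and it fell by 1.37 on the log2 scale (SE 0.23, adjusted p = 0.00207). Yy1 fell by 0.32 (SE 0.10, adjusted p = 0.0438) and Tfam, a transcription and packaging factor of mitochondrial DNA, by 0.26 (SE 0.08, adjusted p = 0.0438). These last calls were lost under 17 and 13 of 26 other settings. Leaving out Het_F_111, Het_M_119 or Het_M_125, KO_F_112 or any KO male ended both of them, Het_F_115 or Het_F_126 or KO_F_123 that of Yy1 alone, and Het_M_137 or KO_F_108 that of Tfam alone (highest adjusted p 0.229 and 0.116 over all settings). Ppargc1a, the coactivator of mitochondrial biogenesis, was spread widely, over 4.16, 19.8 and 51.9 CPM in Het and 27.4, 57.0 and 220 CPM in KO, with a log2 difference of 1.63 (SE 0.58, adjusted p = 0.0704). Nrf1, Gabpa, Gabpb1 and Esrra, whose products bind promoters of subunit genes, had log2 differences between -0.15 and 0.01 and none passed the test.

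Markers of liver cell types were set beside these results, since the RNA came from whole tissue. For comparison, 10.2% of all genes were called lower and 12.2% higher. The defining hepatocyte markers were abundant in every liver (Alb from 35119 to 108632 CPM), so the labelled tissue was present. Of 9 hepatocyte markers, 3 fell (Serpina1c, Ttr and Apoa2, by 1.19, 0.81 and 0.81 on the log2 scale) and 2 rose (Ahsg by 0.51 and Fgb by 0.61). The summed level of the 9 ran from 61981 to 85386 CPM in Het and from 78461 to 135524 CPM in KO. Alb makes up a large part of this sum, and the median log2 difference of the 9 markers was 0.04. Of 7 stellate cell and fibroblast markers, 2 fell, Reln by 1.75 and Lrat by 1.89, with a sum of 247 to 451 CPM in Het and 124.7 to 269 CPM in KO. Of 6 endothelial markers, 2 fell, Kdr by 0.99 and Clec4g by 0.83, with a sum of 161 to 304 CPM in Het and 126.2 to 223 CPM in KO. Of 8 Kupffer cell and macrophage markers, 4 rose (Marco by 2.98, Vsig4 by 0.87, Cd68 by 0.82 and Cd5l by 0.79), with a sum of 121 to 319 CPM in Het and 167 to 511 CPM in KO.

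Of 5 neutrophil markers, 2 rose (S100a8 by 1.17 and Mmp8 by 0.998, both at most 1.24 CPM in every liver), with a sum of 0.52 to 3.70 CPM in Het and 1.80 to 3.75 CPM in KO. Of 6 lymphocyte and 5 cholangiocyte markers, 0 were called in either direction, and their sums were 1.27 to 4.21 and 30.04 to 60.8 CPM in Het and 0.837 to 3.47 and 16.0 to 51.8 CPM in KO. Mmp8 was at 0 in a Het liver. No listed marker of the Kupffer, endothelial or stellate lists was at 0 in any liver. Leaving out single livers gave 2 to 6 of the Kupffer cell markers as higher (2 without Het_F_111 or Het_F_115, Het_M_125 or Het_M_137, or KO_F_123) and 0 to 2 of the neutrophil markers (0 without Het_F_111, Het_F_126, Het_M_125, Het_M_137, KO_F_108 or KO_M_118). The stellate cell and fibroblast count was 2 to 4, and above 2 without KO_F_123 or KO_M_122. Of the lymphocyte markers 1 was called lower without KO_F_123. The call for Fgb was lost without Het_F_111 or Het_F_126, Het_M_119 or Het_M_137, or KO_M_118 or KO_M_136. The part of these shifts in the levels of the complex I genes was not tested.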

How the data were processed

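Total RNA was isolated with TRIzol, depleted of ribosomal RNA and sequenced as stranded pairs. Per the labels and the study's methods, the authors aligned reads with STAR 2.7.9a to GRCm39, estimated counts per gene with Salmon 1.10.1 under the nf-core/rnaseq pipeline, and deposited 3 tables of estimated counts (unscaled, scaled and length-scaled) and 1 table of TPM. The deposited estimated counts are not whole for 12% of values. The authors' TPM values are scaled to 1 total per library and corrected for length.

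The unscaled estimated counts were used. Genes were kept if 3 or more livers held 5 or more reads after scaling to the median library, and counts were then rounded. edgeR 4.0.16 in R 4.3.3 was run with TMM scaling, robust quasi-likelihood fits (prior count 2) and 4 group means shared by all 12 livers. P-values were adjusted by Benjamini-Hochberg over all genes tested, with a threshold of 0.05, and SE is the log2 difference over the square root of F. CPM uses the TMM library sizes. Scripts were tested on simulated data. Each mouse is a separate animal and no batch is recorded in the labels. Livers of 1 group differed by more than counting error (chi-square per degree of freedom from 86.8 to 226). Alternatives used DESeq2 1.42.0 and limma 3.58.1. Positions are from GENCODE M39 on GRCm39.

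Reads shared with near-identical copies could be divided by the estimate. Copies and pseudogenes with a member's name held 0 to 68 reads per liver. Membership of each arm followed textbook placement. The members and lists were chosen with earlier results of these data known. Full values are given for the core subunits, the 8 members with the smallest p, the 3 largest falls and rises, the 3 highest and 3 lowest mean TPM, and the 3 smallest p of each other list. The remaining called members and the members next to the threshold are named with shorter values. A few genes, 1 of them a member, are counted but not reported here by name.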

Additional observations from a re-analysis of the deposited data

Results flagged for a closer look

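In 9 of 76 groups looked at (38 members, 6 Het or 6 KO livers each) 1 liver lay farther from the rest than Dixon's 95% limit for 6 values allows. Chance sets apart a liver in about 1 in 20 such groups, and the members are not independent of each other. KO_F_108 was the low liver in 7 of the 9. It measured 17.9 CPM for Ndufb2 (next lowest 21.7), 23.3 for Ndufb7 (33.0), 12.4 for Ndufa5 (16.5), 19.5 for Ndufs6 (25.9), 24.8 for Ndufv3 (36.7), 43.9 for Ndufa13 (59.9) and 23.6 for Ndufa8 (30.9). KO_F_112 was the high liver for Ndufb6, at 29.0 CPM (next highest 24.3). Het_F_115 was the high liver for Ndufab1, at 37.96 CPM (31.5). Without KO_F_108, 14 of the 38 members were called lower over both sexes in place of 16 (over all genes 1778 in place of 1966).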

How the results depend on the processing

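Over both sexes, 12 to 20 members were called lower and 0 higher under 26 other settings (12 without the filter on low counts or without Het_M_125 or KO_M_118, 20 without KO_F_112). Over all genes, 1966 were called lower in the main fit. That number was 1596, 1536 and 1502 in the settings with 12, and 1735 without KO_F_112. Of the 16 members called, 11 were called in all 26 and 5 lost the call in some (Ndufa5, Ndufa3, Ndufab1, Ndufb5 and Ndufs1), while 8 others gained it in some and 35 stayed below 0 throughout. In females the 4 calls became 2 without the filter, 13 with library sizes alone, 7 with DESeq2 and 11 with limma on TPM at either pseudocount (1 or 0.1), and 0 to 5 when single livers were left out. Over all genes, 986 were called lower in females. That number became 723 without the filter, 1281 with library sizes alone, 1513 with DESeq2 and 1165 or 1176 with limma on TPM. In males the 5 calls became 2 without the filter, 4 with library sizes alone, 10 with DESeq2 and 4 with limma on TPM at either pseudocount. They became 0 to 11 with single livers left out. Over all genes, 576 were called lower in males. That number became 418 without the filter or with library sizes alone, 1003 with DESeq2 and 339 or 356 with limma on TPM. The value of Ndufv1 turned below 0 without rounding (-0.01, -0.00833), with length-scaled (-0.03, -0.0274) or scaled counts (-0.02, -0.0186), with library sizes alone (-0.01, -0.00969) and with limma on TPM (-0.01, -0.0147 and -0.0151), and ran from -0.0415 to 0.0539 when single livers were left out (below 0 in 8 of the 12). That of Ndufa7 ran from -0.0984 to 0.0339, the latter without Het_M_125. The cause of these changes was not tested. Scaling by library size alone moved the median interaction over all genes to 0.16, and limma on TPM + 0.1 that of the male comparison to 0.10. No paired analysis was possible because mouse numbers are not shared between groups. With 3 livers a sex and genotype, tests within a sex called few members.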
